A study of Mus musculus with 6 samples.

Results

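Immediate early genes are transcribed within minutes of a stimulus, without new protein synthesis. The 10 genes described here, Fos, Fosb, Jun, Junb, Egr1, Egr2, Egr3, Nr4a1, Nr4a2 and Nr4a3, were taken by symbol from the 32285 genes of the deposited matrices. The rule uses no measured value, but the list was drawn up with earlier results of these data known. Their unique molecular identifiers (UMIs, tags that mark single captured RNA molecules) were summed over the cells of a class in each library and are given as CPM, counts scaled to the same total for every class and library.

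Fos, Fosb, Jun and Junb encode subunits of the transcription factor AP-1. Egr1, Egr2 and Egr3 encode zinc finger factors induced by growth factors and antigen receptors, and Nr4a1, Nr4a2 and Nr4a3 encode orphan nuclear receptors that T cell receptor signals induce and that are known for roles in exhausted and regulatory T cells. The same genes are also known to be induced when tissue is taken apart or cells are stressed, so B cells, NK cells and myeloid cells, which as types carry no T cell receptor, are set beside T cells throughout.

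Single cells were sequenced with the 10x 3' method from 6 mice, 1 each for control, for 2DG, 2FF and anti-PD-L1 alone, and for anti-PD-L1 combined with 2DG or with 2FF. In the paper these are female C57BL/6 mice with orthotopic KPCA tumors, from a mouse ovarian cancer line proficient in homologous recombination, but the tissue in the labels is lymph node, and the series text mentions young and aged animals. 2DG is the glucose analog 2-deoxy-D-glucose, 2FF, an inhibitor of fucosylation, is 2F-Peracetyl-Fucose in the labels and 2-fluoro-L-fucose in the paper, where the tumor cells were also treated with it before injection, anti-PD-L1 is an antibody that blocks the ligand of PD-1, and control mice received solvent and rat IgG. How the tissue was taken apart for sequencing is not given in the sources used here.

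Libraries held 8598 to 10412 cells and 61859753 to 73885214 UMIs, and 7703 to 9222 cells per library had at least 250 genes and at most 5% mitochondrial UMIs. Of these, 78.0% to 86.1% could be classed by 6 marker genes per class, as 412 to 2950 T cells, 72 to 426 B cells, 16 to 321 NK cells, 2794 to 3970 monocytes and macrophages, 255 to 2798 neutrophils and 85 to 207 dendritic cells. The control library stood apart, with the fewest T cells (412) and NK cells (16) and the most neutrophils (2798). Of 8 genes found in lymph node stroma, Ccl21a had a UMI in 0 to 1 cells per library, Madcam1 in 0 to 2, Ccl19 in 1 to 6 and Lyve1 in 5 to 29. Genes of the list that hematopoietic cells also express were found in more cells, with Cr2 in 0.639% to 1.71%, Tnfsf11 in 1.25% to 6.43%, Pdpn in 8.39% to 19.7% and Fcgr2b in 39.9% to 57.6%, and keratin-positive cells numbered 1 to 19. Pairs of libraries shared 12 to 27 cell barcodes.

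Upstream sequence was at hand for 8 of the 10 genes (RefSeq, GRCm38.p6; the other two are Egr1 and Egr3). The 250 bases before the start of transcription are shown for Nr4a1 and Nr4a2, which part from each other in the results, for Junb, which moved with the Nr4a genes between libraries, and for Fos, the best known immediate early gene. Capitals mark TGACG or its reverse complement CGTCA, the core of the cAMP response element that CREB and ATF factors bind. The Nr4a1 window lies inside the annotated gene, ahead of a shorter transcript.
Nr4a1, chr15:101266596-101266845, plus strand: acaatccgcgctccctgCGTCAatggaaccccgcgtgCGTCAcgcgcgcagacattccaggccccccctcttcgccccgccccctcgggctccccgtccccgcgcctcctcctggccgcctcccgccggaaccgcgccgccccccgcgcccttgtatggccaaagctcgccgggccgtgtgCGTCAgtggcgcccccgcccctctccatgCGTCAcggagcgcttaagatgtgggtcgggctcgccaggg
Nr4a2, chr2:57124004-57124253, minus strand: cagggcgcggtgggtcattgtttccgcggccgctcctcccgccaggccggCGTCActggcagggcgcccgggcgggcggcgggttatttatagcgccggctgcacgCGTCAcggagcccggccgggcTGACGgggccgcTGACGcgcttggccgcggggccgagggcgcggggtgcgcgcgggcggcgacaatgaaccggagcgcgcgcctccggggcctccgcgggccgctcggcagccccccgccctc
Fos, chr12:85473640-85473889, plus strand: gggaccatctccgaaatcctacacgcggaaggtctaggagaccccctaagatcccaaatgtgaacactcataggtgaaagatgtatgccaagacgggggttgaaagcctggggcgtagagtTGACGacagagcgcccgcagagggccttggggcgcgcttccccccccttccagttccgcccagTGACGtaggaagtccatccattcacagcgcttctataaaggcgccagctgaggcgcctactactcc
Junb, chr8:84978749-84978998, minus strand: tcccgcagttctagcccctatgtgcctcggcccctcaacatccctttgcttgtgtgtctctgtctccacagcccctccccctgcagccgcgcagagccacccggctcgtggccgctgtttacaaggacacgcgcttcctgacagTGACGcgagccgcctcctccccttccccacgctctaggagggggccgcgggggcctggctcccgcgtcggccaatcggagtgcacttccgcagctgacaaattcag

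The window held 4 such cores for Nr4a1, 4 for Nr4a2 and 4 for Nr4a3, against 2 for Fos, 1 for Fosb, 1 for Junb, 0 for Jun and 0 to 2 for the windows of Egr2. The windows of Nr4a3 and Fosb and some of those of Egr2 overlap an annotated exon, so they are not wholly upstream sequence. Of 32536 windows of this length over all genes, 17.9% held at least 1 core, 3.92% at least 2 and 0.138% at least 4, counted on both strands. The whole palindrome TGACGTCA was in 0 of the members' windows and in 1.56% of all windows. G and C made up 74.4% of the Nr4a1 window, 80% of that of Nr4a2 and 63.6% of that of Nr4a3. A match describes letters only and is not a measured site.

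Across classes, Nr4a2 was highest in T cells, Nr4a3 in dendritic cells, Fosb in B cells, Fos, Jun and Egr2 in monocytes and macrophages, and Junb, Egr1, Egr3 and Nr4a1 in neutrophils, by the median over the 6 libraries. Most neighbours in these orders overlapped. The top class did not overlap the next for Egr1, where neutrophils held 1437 to 2173 CPM and monocytes and macrophages 432 to 913, for Junb, with 2639 to 3699 CPM in neutrophils and 874 to 2437 in NK cells, and for Nr4a3, with 432 to 534 CPM in dendritic cells and 38.4 to 388 in NK cells. These levels come from 3' ends, so they are compared between classes for 1 gene and not between genes.

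**Figure D1:**
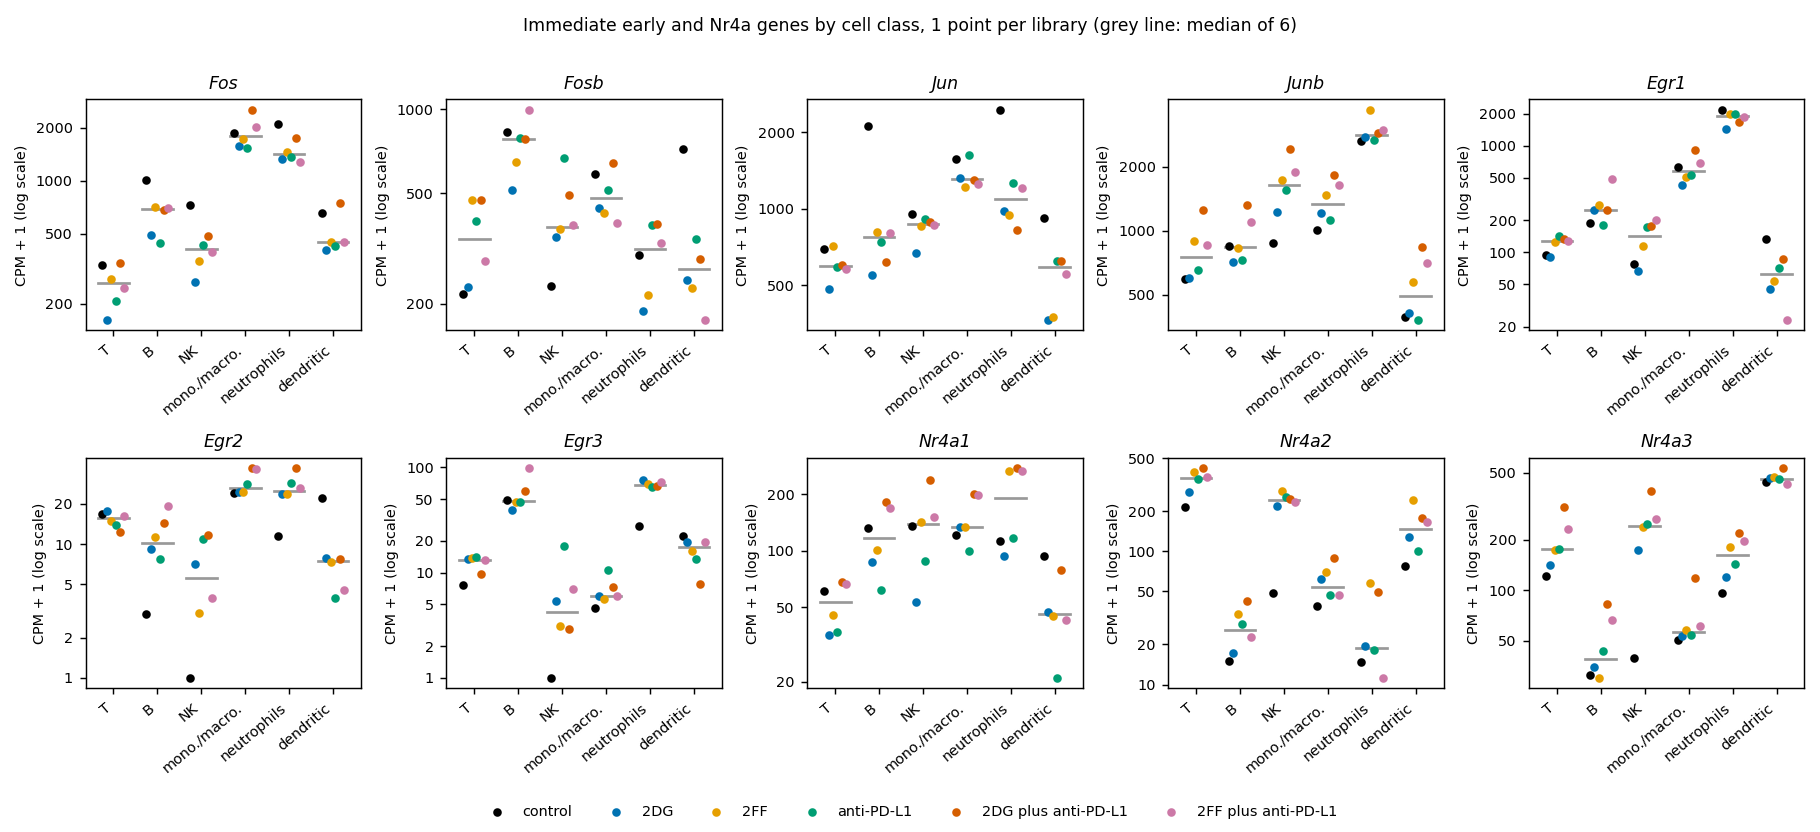
Levels of the 10 genes in CPM + 1 (y axis, log scale) in 6 classes, with 1 point per library coloured by treatment and a grey line at the median of 6. Nr4a2 lies at 215 to 420.4 CPM in T cells and 14.1 to 41.4 CPM in B cells, and Fos at 161 to 339.6 CPM in T cells and 1535 to 2517 CPM in monocytes and macrophages.

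T cells were first set against B cells of the same mice. Nr4a2 and Nr4a3 were higher in T cells, and Fos, Fosb, Egr1, Egr3 and Nr4a1 were lower. Differences were tested within libraries by edgeR's quasi-likelihood test with Benjamini-Hochberg adjustment over all genes tested (n = 6 libraries), and a gene was called at an adjusted p below 0.05 and a difference of at least 2-fold. Of the 10 genes 2 were called higher, where 13.8% of 10574 genes were, and 5 lower, where 11.2% were. The median log2 fold was -1.03 for the 10 genes and 0.00418 for all genes tested.

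Nr4a2 (ENSMUSG00000026826, chromosome 2, 57106830 to 57124003, minus strand) had the largest difference from B cells among the members. Its level in T cells was 215 CPM in control, 275 in 2DG, 391 in 2FF, 349 in anti-PD-L1, 420.4 in 2DG plus anti-PD-L1 and 359 in 2FF plus anti-PD-L1. In B cells it was 14.1, 16.4, 33.1, 27.6, 41.4 and 21.7 CPM in the same order. All T cell values lay far above all B cell values, with a log2 fold of 3.47 ± 0.108 (SE; adjusted p 9.6e-11). Cells were also thinned to 1000 UMIs, with those under 1000 UMIs left out. Then 17.9% to 27.2% of T cells had a Nr4a2 UMI, against 2.36% to 4.24% of B cells and 0% to 4.49% of neutrophils. Without thinning the shares were 45.1% to 63.7% and 5.56% to 12.7% in T and B cells, whose median depths were 5658 to 7456.5 and 4745 to 6118 UMIs.

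Nr4a3 (ENSMUSG00000028341, chromosome 4, 48045153 to 48086447, plus strand) had the same direction and a smaller difference. T cells held 121, 140.3, 172, 176, 314 and 232 CPM in control, 2DG, 2FF, anti-PD-L1 and its combinations with 2DG and with 2FF, and B cells 30.2, 34.1, 29.1, 42.4, 82.1 and 65.8 CPM. T cells were higher in 6 of 6 libraries without overlap, with a log2 fold of 1.86 ± 0.103 (adjusted p 1.5e-08). In the control, 1 T cell held 61 of the 362 Nr4a3 UMIs.

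Nr4a1 (ENSMUSG00000023034, chromosome 15, 101254269 to 101274795, plus strand), whose promoter drives widely used reporters of antigen receptor signals, went the other way from its paralogs. T cells held 59.6, 34.5, 44.3, 36.0, 67.3 and 65.1 CPM and B cells 131, 85.9, 99.8, 61.1, 180.3 and 168 CPM in the same order of libraries. T cells were lower in 6 of 6 libraries, although the lowest B cell value lay within the T cell range. The log2 fold was -1.43 ± 0.0985 (adjusted p 1.0e-07).

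Among the AP-1 subunits, Fos (ENSMUSG00000021250, chromosome 12, 85473890 to 85477273, plus strand) was at 161 to 339.6 CPM in T cells and 444 to 1008 in B cells, with a log2 fold of -1.58 ± 0.106 (adjusted p 7.9e-08). Fosb (ENSMUSG00000003545, chromosome 7, 19302696 to 19310051, minus strand) was at 217 to 473 against 514 to 994 CPM, with a log2 fold of -1.39 ± 0.182 (adjusted p 3.4e-05). Neither gene overlapped between the classes. Jun (ENSMUSG00000052684, chromosome 4, 95049034 to 95052222, minus strand) and Junb (ENSMUSG00000052837, chromosome 8, 84974484 to 84978718, minus strand) stayed under 2-fold, with log2 folds of -0.68 ± 0.181 and -0.43 ± 0.0911 (adjusted p 0.0062 and 0.0016). Jun in B cells stood at 2106 CPM in the control and 548 to 810.2 CPM in the other 5 libraries, while T cells spanned 481 to 710.0 CPM. Without the control its log2 fold was -0.42.

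The Egr genes parted as well. Egr1 (ENSMUSG00000038418, chromosome 18, 34859823 to 34864984, plus strand) was at 88.6 to 142 CPM in T cells and 179 to 482 in B cells, and Egr3 (ENSMUSG00000033730, chromosome 14, 70077203 to 70082614, plus strand) at 6.70 to 13.2 and 38.2 to 97.7 CPM. Both were lower in T cells, without overlap, with log2 folds of -1.37 ± 0.166 and -2.52 ± 0.196 (adjusted p 1.8e-05 and 3.2e-07). Egr2 (ENSMUSG00000037868, chromosome 10, 67535475 to 67542188, plus strand), a factor tied to T cell anergy, was at 11.2 to 16.8 against 2.01 to 18.3 CPM, and its log2 fold of 0.14 ± 0.238 did not pass (adjusted p 0.65). Egr2 and Egr3 rest on few molecules, with a UMI in 5.35% to 8.71% and 3.50% to 4.70% of T cells.

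**Figure D2:**
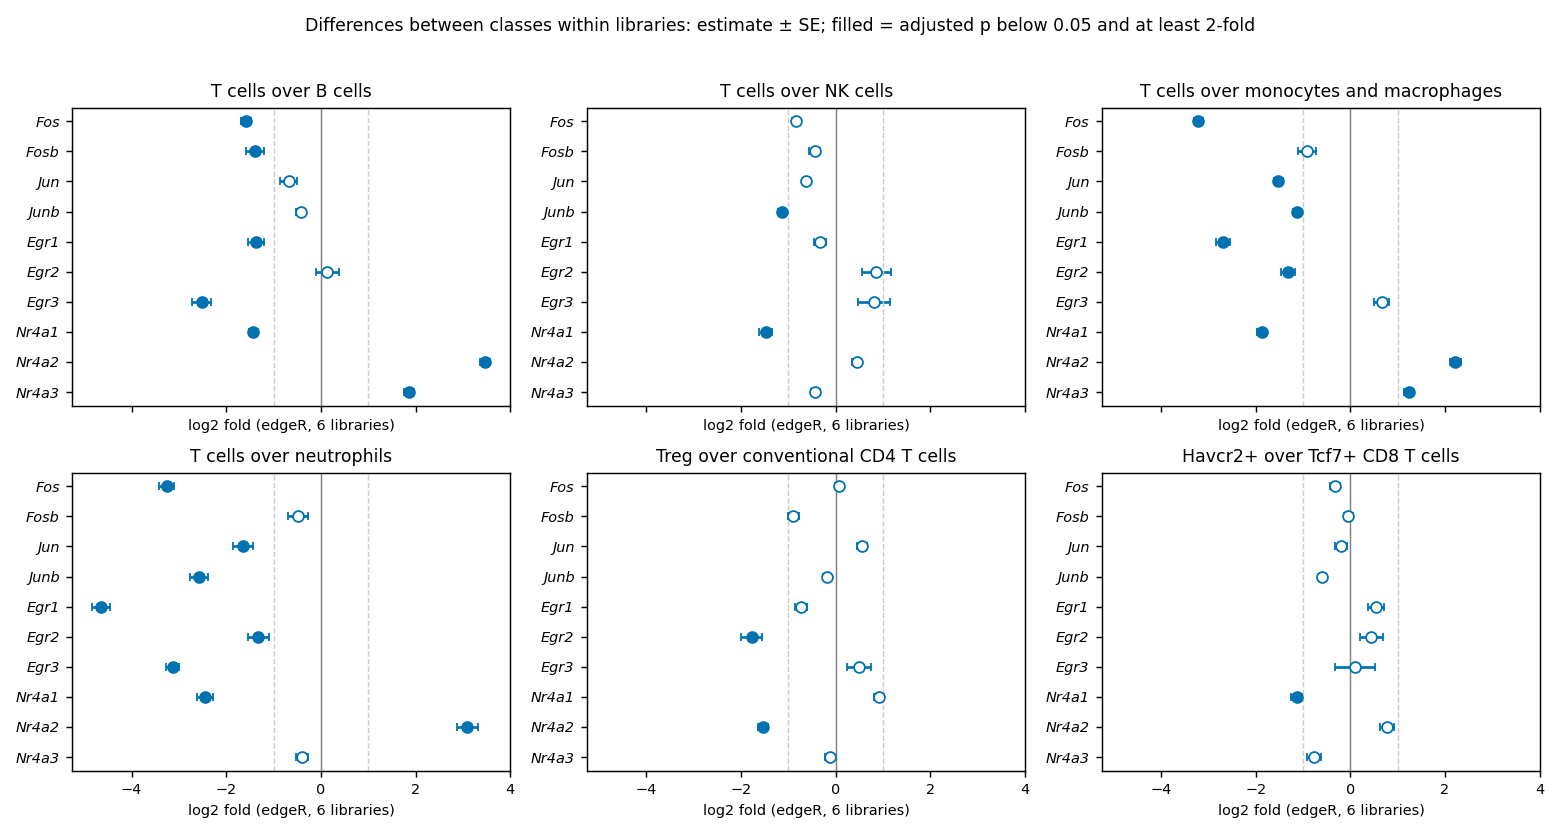
Log2 fold of each gene (x axis) between classes within the 6 libraries, as the edgeR estimate with its SE; filled points passed an adjusted p of 0.05 and 2-fold. Nr4a2 lies above 0 against B cells (3.47), NK cells (0.44), monocytes and macrophages (2.22) and neutrophils (3.09), and below 0 in Treg over conventional CD4 T cells (-1.54).

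Against monocytes and macrophages, T cells again had more Nr4a2 and Nr4a3 and less of most other members. Of the 10 genes 2 were called higher, a share near the 20.8% of all 14519 genes tested, and 6 lower, where 22.7% of all genes were. Nr4a2, at 37.8 to 87.4 CPM in these cells, and Nr4a3, at 49.3 to 117 CPM, did not overlap T cells, with log2 folds of 2.22 ± 0.116 and 1.23 ± 0.0956 (adjusted p 1.1e-07 and 1.8e-06). Fos, at 1535 to 2517 CPM, had the lowest log2 fold, -3.22 ± 0.0985 (adjusted p 3.8e-09).

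Egr1, at 432 to 913 CPM, followed with a log2 fold of -2.70 ± 0.146. Nr4a1, Jun, Egr2 and Junb were also called lower, with log2 folds of -1.88, -1.52, -1.32 and -1.14. Fosb (-0.91) and Egr3 (0.66) passed the adjusted p (0.0016 and 0.0036) but not 2-fold. These folds are after edgeR's scaling, and for 3 genes the 2-fold limit depends on it. By median CPM, Junb was at 756 in T cells and 1336 in monocytes and macrophages, and Egr2 at 14.6 and 25.4, both under 2-fold. Egr3 was at 12.3 and 4.99 CPM, past 2-fold. With cells thinned to 1000 UMIs Junb was under 2-fold, at -0.98. Without the 2FF library Fosb passed both, at -1.07.

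Against neutrophils 1 gene was called higher, where 31.6% of 12858 genes were, and 7 lower, where 22.4% were. The median of all genes in this contrast was 0.32, and that of the members -2.05. Nr4a2 was the gene that was higher, at 10.2 to 57.0 CPM in neutrophils (log2 fold 3.09 ± 0.225, adjusted p 2.9e-08). Egr1 had the lowest fold, at 1437 to 2173 CPM in neutrophils (log2 fold -4.64 ± 0.189, adjusted p 7.4e-11). Fos, Egr3, Junb, Nr4a1, Jun and Egr2 followed with -3.26, -3.13, -2.58, -2.45, -1.64 and -1.33. By median CPM, without edgeR's scaling, Jun was at 594 in T cells and 1088 in neutrophils, and Egr2 at 14.6 and 24.1, both under 2-fold. Nr4a3 and Fosb stayed under 2-fold, and their direction depends on the scaling. Nr4a3 was at 95.9 to 218 CPM in neutrophils and higher in T cells in 5 of 6 libraries by CPM, while its log2 fold after edgeR's scaling was -0.41. Fosb was at 188 to 385 CPM in neutrophils and higher in T cells in 4 of 6 libraries by CPM, with a log2 fold of -0.49.

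NK cells, which share cytotoxic genes with CD8 T cells, were closer to T cells. The 6 T cell markers summed to 317 to 455 CPM in the cells classed as NK and to 2798 to 4290.2 CPM in T cells, and 72.7% of NK cells had a UMI of one, against 11.2% of B cells and 7.70% of neutrophils. The part of these molecules in the NK values was not tested. Of the 10 genes 0 were called higher in T cells, where 10.8% of 9978 genes were, and 2 lower, where 7.06% were. At an unadjusted p under 0.05, 3 genes were higher, and DESeq2 called 2, Egr2 and Egr3, as did edgeR without the anti-PD-L1 library, while 1, Egr2, was called without 2DG plus anti-PD-L1. These calls rest on few molecules, since NK cells held 38 Egr2 and 32 Egr3 UMIs over the 6 libraries and 0 CPM of both in the control. Egr3 in NK cells had a median of 3.24 CPM and was highest in anti-PD-L1, at 16.8 CPM. Junb was at 874 to 2437 CPM in NK cells, with a log2 fold of -1.14 ± 0.0758 (adjusted p 7.7e-10), and Nr4a1 at 52.0 to 238 CPM, with -1.48 ± 0.133 (adjusted p 4.8e-08). Both were lower in T cells in 6 of 6 libraries. Nr4a2 was at 218 to 283 CPM in the NK cells of the 5 treated mice and 48.0 CPM in the 16 of the control, where 5 UMIs were counted, and its log2 fold was 0.44 ± 0.0980.

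Other early response genes, a list of 26 with further AP-1 subunits, MAP kinase phosphatases and mRNA decay factors, were mostly lower in T cells than in myeloid cells. Against B cells 6 of 25 tested were called higher and 7 lower, with Dusp5 (2.03) and Fosl2 (1.92) at the top and Klf2 (-2.90) and Myc (-2.63) at the bottom (log2 folds). Against monocytes and macrophages 1 of 26 was called higher, Dusp2 (2.08), and 17 lower, down to Atf3 (-4.21) and Ier3 (-4.09). Dusp5 came next and was just under 2-fold. Of all genes, 13.8% were called higher and 11.2% lower against B cells, and 20.8% and 22.7% against monocytes and macrophages. The list's median log2 fold was -0.53 against B cells, -1.38 against monocytes and macrophages and -2.81 against neutrophils.

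Genes known to be induced through the T cell receptor had another distribution. Against B cells 13 of 19 were called higher, led by Ifng (6.69) and Tnfrsf9 (5.96), and 4 lower, down to Irf4 (-2.26) and Rel (-1.75), factors that B cells also use. Against monocytes and macrophages 14 of 19 were higher, led by Ifng (6.97) and Xcl1 (6.51), and 2 lower, Irf8 (-1.33) and Tnf (-1.05). Against NK cells the counts were 5 higher and 5 lower, where 10.8% and 7.06% of all genes were. Of all genes, 13.8% were called higher and 11.2% lower against B cells, and 20.8% and 22.7% against monocytes and macrophages. The list was chosen with earlier results known, and a difference between cell types does not show whether a receptor had signalled.

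All 10 exhaustion genes were called higher than in B cells, from Entpd1 (1.32) and Tox2 (3.80) to Lag3 (6.42) and Pdcd1 (6.78). Against monocytes and macrophages 8 were higher, led by Pdcd1 (6.76) and Rgs16 (6.73), and Havcr2 (0.40) and Entpd1 (-0.80) were not called. Of the heat shock genes 1 of 13 was higher than in B cells, Bag3 (1.04), with Hsph1 (0.29) next, and Dnajb4 (-0.69) and Dnajb1 (-0.53) at the bottom stayed under 2-fold. Against monocytes and macrophages 1 was higher, Hsph1 (1.40), with Hspd1 (0.48) next, and 4 lower, down to Hspa1a (-1.76) and Hspb1 (-1.70). Of all genes, 13.8% were called higher and 11.2% lower against B cells, and 20.8% and 22.7% against monocytes and macrophages. A difference between cell types does not show whether T cells were exhausted.

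Within CD8 T cells, Havcr2 (TIM-3) marks terminally exhausted cells and Tcf7 cells with stem-like properties. Cells with a Havcr2 UMI numbered 65 to 1158 per library, and those with Tcf7 and no Havcr2 UMI 20 to 200. Nr4a1 was lower in Havcr2+ cells by more than 2-fold, Nr4a3 was lower by less and Nr4a2 higher by less. Of the 10 genes 0 were called higher, where 2.64% of 8599 genes were, and 1 lower, where 3.24% were. At an unadjusted p under 0.05, 2 genes were higher, and DESeq2 called 0 higher.

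Nr4a1 was at 29.1, 23.5, 32.6, 26.2, 55.6 and 46.8 CPM in Havcr2+ cells of control, 2DG, 2FF, anti-PD-L1 and its combinations with 2DG and with 2FF. In Tcf7+ cells it was at 69.1, 57.2, 86.8, 61.5, 87.6 and 83.9 CPM in that order. The ranges did not overlap, with a log2 fold of -1.14 ± 0.121 (adjusted p 3.2e-06). Counts were small in the control, with 17 Nr4a1 UMIs in Havcr2+ and 12 in Tcf7+ cells.

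Nr4a2 was at 288, 308, 479, 432, 508 and 472 CPM in Havcr2+ and 51.8, 261, 231, 281, 322 and 211 CPM in Tcf7+ cells, in the same order. Havcr2+ cells were higher in 6 of 6 libraries, although the ranges overlapped, with a log2 fold of 0.77 ± 0.142 (adjusted p 6.1e-04). Nr4a3 was lower in Havcr2+ cells in 6 of 6 libraries, at 54.8 to 264 against 170.0 to 410.3 CPM, with -0.77 ± 0.143 (adjusted p 6.8e-04). Junb too was lower in 6 of 6 libraries, with -0.61 ± 0.0860 (adjusted p 5.8e-05). Median depths were 6601.5 to 8901 UMIs in Havcr2+ and 5250 to 8305.5 in Tcf7+ cells, and a cell with more UMIs is more likely to show Havcr2.

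Of the other early response genes 3 of 24 were called lower in Havcr2+ cells, with Ier3 (0.65) and Jund (0.45), both under 2-fold, at the top and Klf2 (-2.67) and Maff (-1.48) at the bottom. Of the T cell receptor response genes 5 of 19 were higher, led by Ccl3 (3.62) and Ccl4 (2.31), and 3 lower, down to Crtam (-1.40) and Nfkbid (-1.27). Of the exhaustion genes 5 of 10 were higher, among them Havcr2, which defined the subsets, and Entpd1 (2.68), with Tigit (0.45) and Cd160 (0.12) at the bottom. The 13 heat shock genes stayed within 2-fold, between Hspa5 (0.22) and Hsp90ab1 (0.18) at the top and Hspa1b (-0.29) and Hspa1a (-0.32) at the bottom. Of all genes, 2.64% were called higher and 3.24% lower in this contrast.

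**Figure D3:**
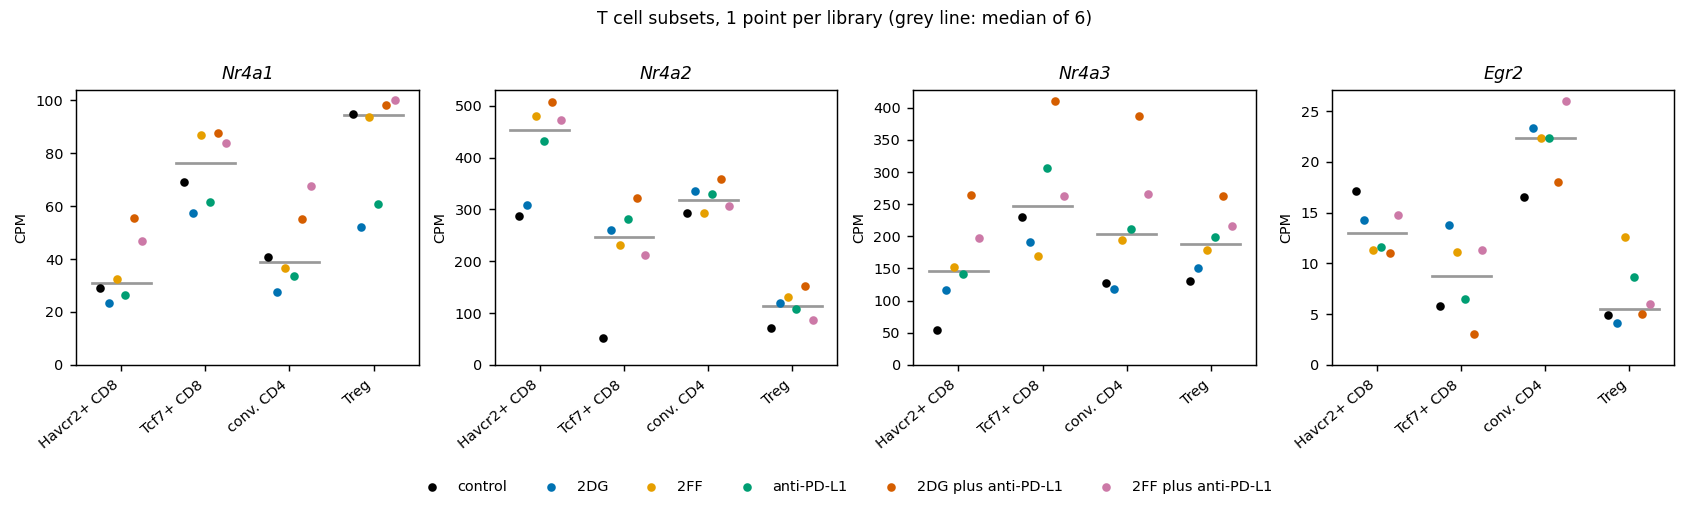
Levels in CPM (y axis) of Nr4a1, Nr4a2, Nr4a3 and Egr2 in Havcr2+ and Tcf7+ CD8, conventional CD4 and Treg cells, with 1 point per library and a grey line at the median of 6. Nr4a1 lies at 23.5 to 55.6 CPM in Havcr2+ and 57.2 to 87.6 CPM in Tcf7+ cells, and Nr4a2 at 72 to 151 CPM in Treg and 292 to 358 CPM in conventional CD4 T cells.

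Treg cells (76 to 380 per library), which carry Foxp3, were set against conventional CD4 T cells (136 to 627). Nr4a2 and Egr2 were lower in Treg cells, and Nr4a1 was higher by less than 2-fold. Of the 10 genes 0 were called higher, where 3.65% of 10033 genes were, and 2 lower, where 4.12% were. At an unadjusted p under 0.05, 2 genes were higher, and DESeq2 called 0 higher. With 2FF plus anti-PD-L1 left out, 1 gene was called higher, Nr4a1.

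Nr4a2 was at 72, 119, 132, 108, 151 and 86.4 CPM in Treg cells of control, 2DG, 2FF, anti-PD-L1 and its combinations with 2DG and with 2FF, and at 293, 335, 292, 329, 358 and 306 CPM in conventional CD4 T cells. The ranges did not overlap, with a log2 fold of -1.54 ± 0.0984 (adjusted p 3.9e-08). Egr2, at 4.11 to 12.6 against 16.5 to 26.0 CPM, did not overlap either, with -1.78 ± 0.218 (adjusted p 2.3e-05).

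Nr4a1 pointed the opposite way, at 94.9, 52.0, 93.8, 60.7, 98.3 and 100.2 CPM in Treg and 40.8, 27.5, 36.8, 33.6, 55.3 and 67.6 CPM in conventional CD4 T cells. It was higher in 6 of 6 libraries, with a log2 fold of 0.91 ± 0.108 (adjusted p 1.6e-05). Jun was also higher in 6 of 6 libraries (0.55 ± 0.0990) and Fosb and Egr1 lower in 6 of 6 (-0.89 ± 0.123 and -0.73 ± 0.122), each under 2-fold. Without the control library Fosb passed 2-fold, at -1.01. Nr4a3 had a log2 fold of -0.13 ± 0.103 (adjusted p 0.39).

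The treatments ask whether 2DG or 2FF, alone or with anti-PD-L1, went with another state of the T cells. Each group was 1 mouse, so there is no test between treatments, and intervals cover counting error only. The 10 genes summed in T cells to 2344 CPM in control, 2035 in 2DG, 3109 in 2FF, 2575 in anti-PD-L1, 3611 in 2DG plus anti-PD-L1 and 2778 in 2FF plus anti-PD-L1. The log2 ratio to control was -0.20 (95% interval -0.24 to -0.17) in 2DG, 0.41 (95% interval 0.37 to 0.44) in 2FF and 0.14 (95% interval 0.10 to 0.17) in anti-PD-L1. It was 0.62 (95% interval 0.59 to 0.66) in 2DG plus anti-PD-L1 and 0.25 (95% interval 0.21 to 0.28) in 2FF plus anti-PD-L1. These 5 ratios share the control library, and the next ones share the anti-PD-L1 library. Over anti-PD-L1 alone it was 0.49 (95% interval 0.47 to 0.51) for 2DG plus anti-PD-L1 and 0.11 (95% interval 0.091 to 0.13) for 2FF plus anti-PD-L1. With 5 CPM added, the sum was above control in 0 of 6 classes in 2DG, 2 in 2FF, 2 in anti-PD-L1 and 3 in each combination. In 2DG plus anti-PD-L1 over control it ranged from -0.37 in B cells to 0.80 in NK cells. Over anti-PD-L1 it was higher in 6 of 6 classes in 2DG plus anti-PD-L1, from 0.024 in neutrophils to 0.49 in T cells. The same held in 2FF plus anti-PD-L1, from 0.012 in NK cells to 0.54 in B cells. How many of all genes did so was not counted.

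Single genes were set against a limit of 2-fold, with 5 CPM added to both values and at least 50 UMIs over both libraries, which all 10 genes had. In 2DG over control 1 gene was lower, Fos (-1.01), where 1.33% of 11469 genes were, and 0 higher, where 0.323% were. In 2FF over control 1 was higher, Fosb (1.11), where 0.8% of 11374 genes were, and 0 lower, where 2.09% were. In anti-PD-L1 over control 0 were higher and 0 lower, where 0.504% and 1.71% of 11307 genes were. These counts over 10 genes come from 1 mouse per group and were not tested.

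In 2DG plus anti-PD-L1 over control 3 genes were higher, Nr4a3 (1.34), Fosb (1.11) and Junb (1.06), where 1.19% of 11182 genes were, and 0 lower, where 2.33% were. In 2FF plus anti-PD-L1 over control 0 were higher and 0 lower, where 0.626% and 1.79% of 11020 genes were, and Nr4a3 came nearest (0.91). In 2DG plus anti-PD-L1 against anti-PD-L1 0 were higher and 0 lower, where 0.352% and 0.18% of 12221 genes were, with Junb (0.93), Nr4a1 (0.82) and Nr4a3 (0.82) at the top.

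In 2FF plus anti-PD-L1 against anti-PD-L1 0 were higher and 0 lower, where 0.173% and 0.0908% of 12111 genes were, with Nr4a1 (0.77) at the top and Fosb (-0.48) at the bottom. The median log2 ratio of all genes lay between -0.062 and -0.0088 in the 7 comparisons. Over 2DG alone, 2DG plus anti-PD-L1 had log2 ratios of 1.14 for Nr4a3, 1.06 for Junb, 1.05 for Fos and 1.03 for Fosb. All 4 genes were higher in 6 of 6 classes there. The share of all genes past 2-fold was not counted for the combinations over 2DG or 2FF alone. Over 2FF alone, 2FF plus anti-PD-L1 had 0.51 for Nr4a1, 0.42 for Nr4a3 and -0.73 for Fosb.

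Nr4a2 and Nr4a3 over all T cells were lowest in the control and highest in 2DG plus anti-PD-L1. The make-up of the class differed, with CD8 cells making up 120 of 412 T cells in the control, 1354 of 2743 in 2DG, 2000 of 2950 in 2FF, 1642 of 2648 in anti-PD-L1, 1737 of 2711 in 2DG plus anti-PD-L1 and 1123 of 1894 in 2FF plus anti-PD-L1. Within CD8 T cells Nr4a2 was at 246 CPM in the control and 310.2 to 471 CPM in the other 5 libraries. Nr4a3 in CD8 T cells was at 100 CPM in the control and 136 to 282 CPM in the others. Treg cells of the control were also lowest, with 72 CPM of Nr4a2 against 86.4 to 151 and 131 CPM of Nr4a3 against 151 to 262. These control values rest on 44 and 80 UMIs, with 95% intervals of 52.3 to 96.6 and 104 to 163 CPM. The intervals overlap those of the next library, 72.8 to 102 for Nr4a2 in 2FF plus anti-PD-L1 and 136 to 166 for Nr4a3 in 2DG. Within conventional CD4 T cells the control was level with the lowest for Nr4a2, at 293 CPM (95% interval 261 to 328) against 292 to 358 in the others. Nr4a3 there was at 127 CPM, from 131 UMIs, against 119 to 388 CPM. Which subset held the control T cell with 61 Nr4a3 UMIs was not determined. Beyond T cells, Nr4a2 was lowest in the control in all other classes but neutrophils, and Nr4a3 in all but B cells and dendritic cells. In 2DG plus anti-PD-L1 over control both genes were higher in 6 of 6 classes and past 2-fold in 5. For Nr4a2 the log2 ratio ran from 0.95 in T cells to 2.24 in NK cells, and for Nr4a3 from 0.28 in dendritic cells to 3.18 in NK cells. How many of all genes did so was not counted.

 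Junb, which can form AP-1 with BATF in T cells, was at 595 CPM in control, 595 in 2DG, 892 in 2FF, 652 in anti-PD-L1, 1247 in 2DG plus anti-PD-L1 and 859 in 2FF plus anti-PD-L1. The higher Nr4a3 of 2DG plus anti-PD-L1 was seen in each subset, at 282 CPM in CD8, 388 in conventional CD4 and 262 in Treg cells, against 163, 212 and 198 CPM in anti-PD-L1. With cells thinned to 1000 UMIs, 23.0% of T cells had a Nr4a3 UMI in 2DG plus anti-PD-L1, 13.7% in anti-PD-L1 and 7.96% in control (unthinned 54.9%, 40.1% and 23.8%). In the control, where 1 T cell held 61 of 362 UMIs, Nr4a3 rests on that cell in part, and without the 5% of cells with the most UMIs its log2 ratio to control in 2DG plus anti-PD-L1 was 1.59. The thinned share in B cells was 1.45% to 4.25%.

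**Figure D4:**
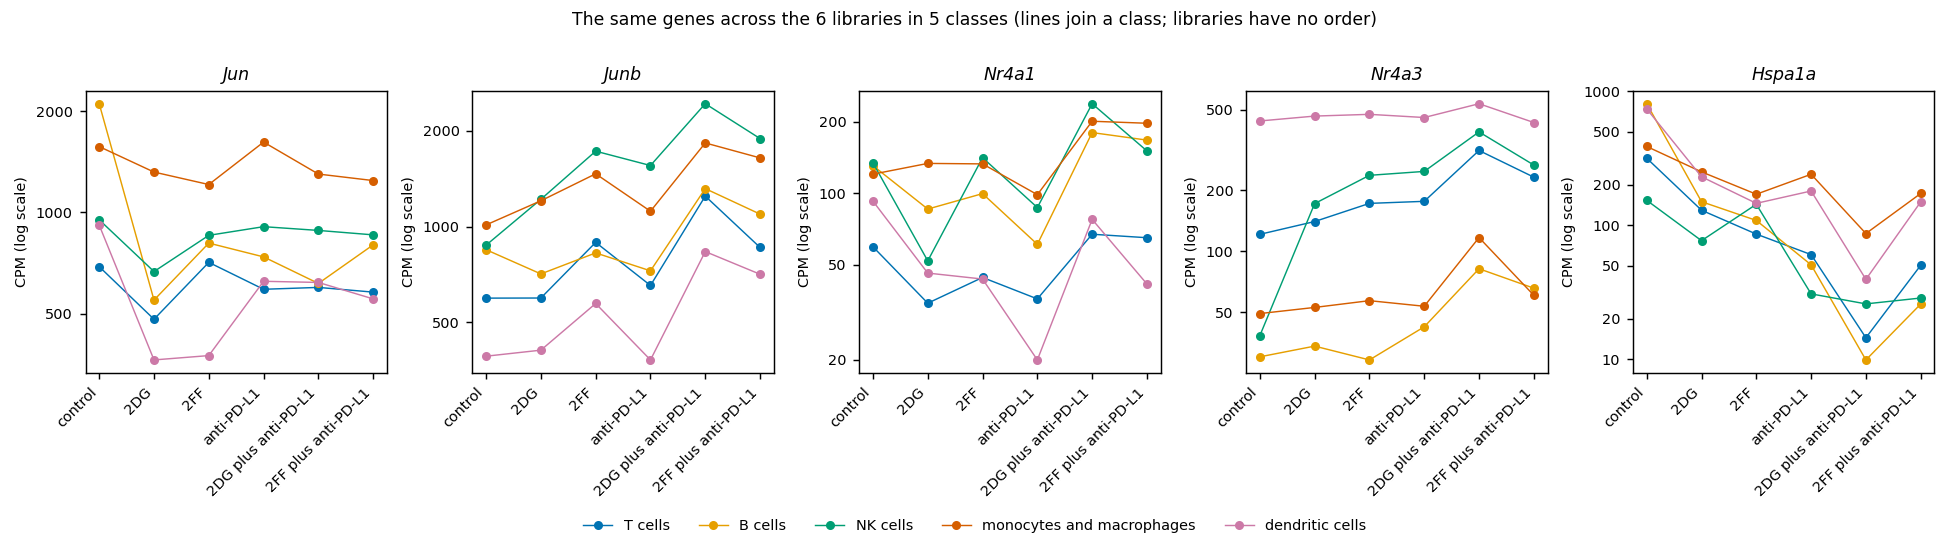
Levels in CPM (y axis, log scale) of Jun, Junb, Nr4a1, Nr4a3 and the heat shock gene Hspa1a in the 6 libraries (x axis, no order), with 1 line per class for T cells, B cells, NK cells, monocytes and macrophages, and dendritic cells. Junb and Nr4a3 are highest in 2DG plus anti-PD-L1 in each of the 5 classes, at 1247 and 314 CPM in T cells, and Hspa1a is lowest there, at 14.4 CPM. Neutrophils, which are not drawn, had the most Junb in 2FF (3699 CPM) and the most Nr4a3 in 2DG plus anti-PD-L1 (218 CPM).

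Some members moved the same way in every class. How many of all genes did so was not counted, here or in the paragraphs below, and all classes of a library come from 1 mouse. In 2DG plus anti-PD-L1 against anti-PD-L1, Junb, Nr4a1, Nr4a3 and Fos were higher in 6 of 6 classes. Nr4a1 ranged from 0.82 in T cells to 1.73 in dendritic cells, so that T cells had the lowest ratio. Junb ranged from 0.12 in neutrophils to 1.12 in dendritic cells, and Nr4a3 from 0.22 in dendritic cells to 1.06 in monocytes and macrophages. In 2FF plus anti-PD-L1 against anti-PD-L1, Nr4a1 and Junb were higher in 6 of 6 classes, Nr4a1 from 0.76 in NK cells to 1.39 in B cells and Junb from 0.15 in neutrophils to 0.89 in dendritic cells.

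Other members did not share a direction over the classes. In 2DG plus anti-PD-L1 against anti-PD-L1, Nr4a2 was higher in 5 of 6 classes and ranged from -0.049 in NK cells to 1.26 in neutrophils. Fosb was higher in 3 of 6 classes, T cells among them, and ranged from -0.44 in NK cells to 0.32 in monocytes and macrophages. Egr1 was at 131 CPM in T cells of 2DG plus anti-PD-L1 and 142 in anti-PD-L1, and was higher in 4 of 6 classes, up to monocytes and macrophages (0.770).

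In monocytes and macrophages, the class with the most cells, Junb was at 1012 CPM in control, 1206 in 2DG, 1466 in 2FF, 1117 in anti-PD-L1, 1834 in 2DG plus anti-PD-L1 and 1645 in 2FF plus anti-PD-L1. Nr4a3 there was at 117 CPM in 2DG plus anti-PD-L1 and 49.3 to 60.7 CPM in the other 5 libraries. B cells likewise held 82.1 CPM in that library and 29.1 to 65.8 CPM in the others. Fos was lower than in control in all 6 classes in 2DG, in 2FF and in anti-PD-L1, with log2 ratios of -1.01, -0.25 and -0.66 in T cells.

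**Figure D5:**
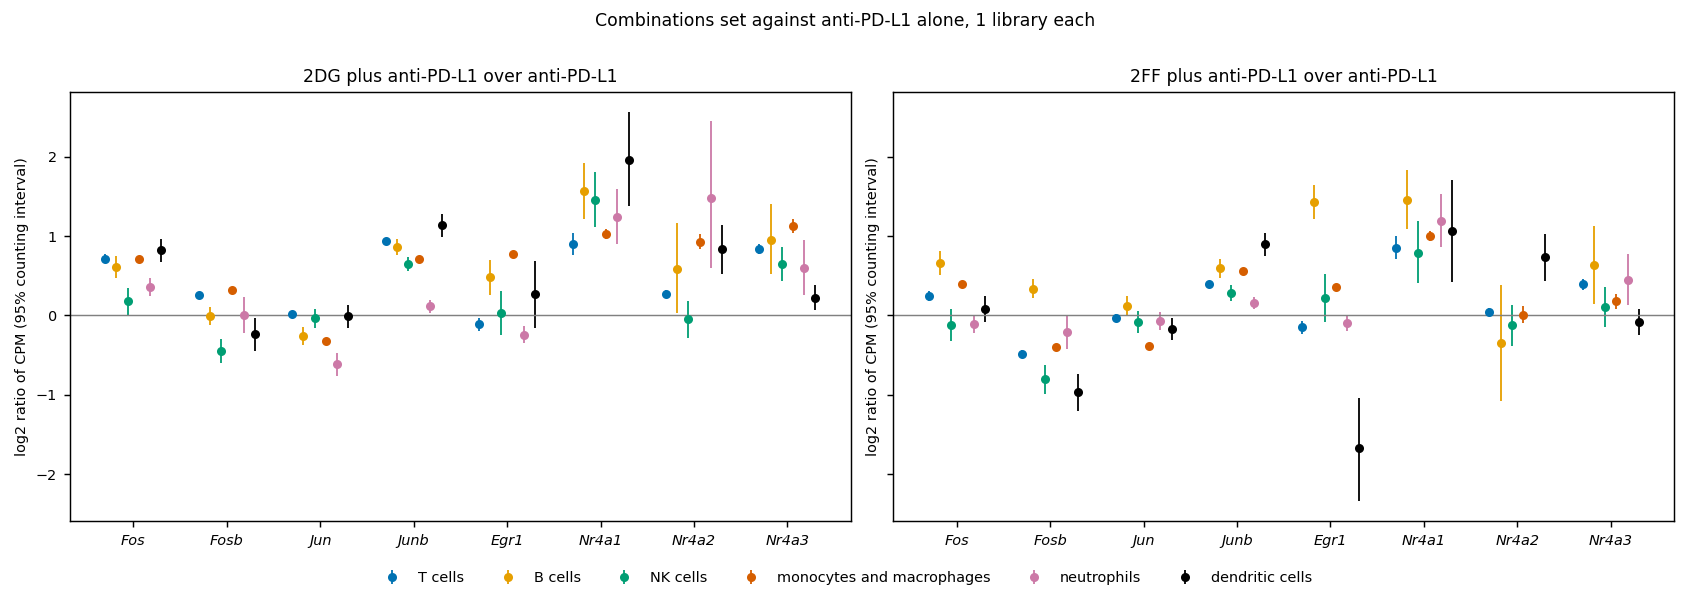
Log2 ratio of CPM (y axis) of 8 members in 2DG plus anti-PD-L1 (left) and 2FF plus anti-PD-L1 (right) relative to anti-PD-L1, 1 colour per class, with 95% counting intervals; genes under 50 UMIs are left out. Nr4a1 lies above 0 in 6 of 6 classes on the left and 6 of 6 on the right, and Jun in 1 of 6 and 1 of 6.

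Heat shock genes differed between the same libraries. Hspa1a, which encodes an inducible HSP70, was at 317 CPM in T cells of control, 129.5 in 2DG, 85.9 in 2FF, 60.4 in anti-PD-L1, 14.4 in 2DG plus anti-PD-L1 and 50.2 in 2FF plus anti-PD-L1. In all 6 classes it was lowest in 2DG plus anti-PD-L1, for example at 9.86 CPM in B cells against 25.8 to 809 CPM in the other 5 libraries. The list of 14 had a median log2 ratio to control in T cells of -0.42 in 2DG, -0.30 in 2FF, -0.49 in anti-PD-L1, -0.51 in 2DG plus anti-PD-L1 and -0.39 in 2FF plus anti-PD-L1. Its summed level was 4555 to 5857 CPM in T cells, 9879.6 CPM in control and 3450.1 to 4693 CPM in the other 5 libraries in B cells, and 9040.1 against 5512 to 6586 CPM in dendritic cells, so the control stood apart in both. Control B cells were also high in Jun and control dendritic cells in Fosb (720.2 CPM against 174 to 340.2). The part of heat shock genes in the differences of the 10 genes was not tested.

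Jun did not share the pattern of Junb, Nr4a2 and Nr4a3. In B cells and neutrophils it was highest in the control, at 2106 and 2444 CPM, and at 548 to 810.2 and 824 to 1264 CPM in the other 5 libraries. NK cells and dendritic cells were also highest in the control, at 950 and 917 CPM, with medians over the libraries of 870 and 586 CPM. T cells were highest in 2FF (710 CPM), and monocytes and macrophages in anti-PD-L1 (1619 CPM). In both combinations over control Jun was lower in all 6 classes. In T cells its log2 ratio to control lay between -0.52 in 2DG and 0.042 in 2FF.

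The T cell receptor response list had median log2 ratios to control in T cells of 0.00188 in 2DG, 0.23 in 2FF, 0.18 in anti-PD-L1, 0.082 in 2DG plus anti-PD-L1 and 0.15 in 2FF plus anti-PD-L1. Its summed level, which its most abundant genes set, was 3566 CPM in control, 4095 in 2DG, 5888 in 2FF, 4499.9 in anti-PD-L1, 5941 in 2DG plus anti-PD-L1 and 5503 in 2FF plus anti-PD-L1. In NK cells the sum was 5050, 6317, 8401, 7445, 9975 and 9271 CPM in the same order, so it was lowest in the control there too. In B cells it was 2210, 2100, 1973, 2291, 2597 and 2885 CPM. Neutrophils held 5809, 2808, 6576, 5813, 5956 and 7084 CPM in that order, above T cells in every library but 2DG. The sum is therefore not particular to T cells. The share of CD8 cells among T cells differed between libraries, and its part in the T cell sums was not tested. Over control, 1 of 19 genes with 50 UMIs were past 2-fold higher in 2DG, where 0.323% of all genes were, 5 of 19 in 2FF (0.8%), 2 of 20 in anti-PD-L1 (0.504%), 3 of 19 in 2DG plus anti-PD-L1 (1.19%), 3 of 20 in 2FF plus anti-PD-L1 (0.626%), and 0 were past 2-fold lower in each. Cd69, an early activation marker, was at 232 to 319 CPM in T cells. The median of the exhaustion list lay between -0.18 in 2DG and 0.18 in 2DG plus anti-PD-L1, and that of the other early response genes between -0.31 and 0.20 in the same libraries.

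The genes with the most similar pattern were sought over 36 units of class and library, after the mean of each class was taken off, among 6384 genes. For the summed Fos, Jun and Egr genes they were Ccl3 (r = 0.78), Klf2 (0.77), Jund (0.75), Coq10b (0.71) and Btg2 (0.70). For the summed Nr4a genes they were Rbbp8 (r = 0.85), Gabpb1 (0.80), Irf7 (0.80), Birc3 (0.79) and Skil (0.79). Junb had r = 0.81 with the summed Nr4a genes, and Jun r = -0.25. The Nr4a genes did not all move together, with r = 0.70 between Nr4a2 and Nr4a3, 0.41 between Nr4a1 and Nr4a3 and 0.17 between Nr4a1 and Nr4a2. The 36 units share 6 libraries, so these values describe the libraries and carry no p.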

How the data were processed

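The authors deposited counts of UMIs for every cell and gene without normalization, made with Cell Ranger (7.0.0 per the file headers, 3.1.0 per the submitters' processing notes) on mm10. A cell joined a class with at least 2 of its 6 markers detected and a lead of 2 markers over every other class. No doublet caller was run. Counts were summed per class and library. Where cells were thinned, those with fewer than 1000 UMIs were left out. Class contrasts used edgeR 4.0.16 (TMM, filterByExpr) in R 4.3.3 with the library as a block, because both classes of a library come from 1 mouse. The test was checked on simulated data. DESeq2 1.42.0 was an alternative. Levels have exact Poisson and ratios exact binomial (Clopper-Pearson) 95% intervals, which cover counting error only. Passing cells had a median of 6196 to 7732 UMIs per library. The members, markers and gene lists were chosen with earlier results of these data known. Named are all members and, in the contrasts with B cells, with monocytes and macrophages and of CD8 subsets, the 2 highest and 2 lowest genes of each other list. Gene positions are from GENCODE M21 (GRCm38). Other alternatives were a lead of 1 marker, a strict gate, a 10% mitochondrial limit, thinning to 1000 UMIs, leaving out the 5% of cells with the most UMIs, no filter on low counts, no library block, each library left out, mean CPM over cells, scaling to a median ratio of 0, pseudocounts of 1 and 20 CPM and a minimum of 20 UMIs.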

Additional observations from a re-analysis of the deposited data

Results flagged for a closer look

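In 10 comparisons a member passed 2-fold upward in at least 1 class and downward in another, and the highest class is named. Fosb in 2DG plus anti-PD-L1 and Egr1 in 2FF plus anti-PD-L1, both over control, were past 2-fold higher in 2 classes. These differences between classes were not tested, since each treatment is 1 mouse. In each the lower class was dendritic cells, of which there were 85 to 207 per library. Apart from Egr1 over anti-PD-L1, all were over control, which held the highest dendritic cell level of each of these genes. The control levels there were 720.2 CPM for Fosb, 132 for Egr1, 21.1 for Egr2, 21.1 for Egr3 and 92.8 for Nr4a1. How many of all genes passed in both directions was not counted.

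Fosb over control had log2 ratios of 1.11 in T cells and -1.65 in dendritic cells in 2FF, 1.52 in NK cells and -1.07 in dendritic cells in anti-PD-L1, and 1.11 in T cells and -1.30 in dendritic cells in 2DG plus anti-PD-L1. Dendritic cells held 720.2 CPM of Fosb in the control and 174 to 340.2 CPM in the other 5 libraries. Nr4a1 over control was 1.22 in neutrophils and -1.01 in dendritic cells in 2FF, and 1.22 and -1.07 in 2FF plus anti-PD-L1.

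Egr2 over control was 1.07 in neutrophils and -1.71 in dendritic cells in anti-PD-L1, and 1.40 and -1.15 in 2DG plus anti-PD-L1. Egr3 was 1.15 in neutrophils and -1.15 in dendritic cells in 2DG plus anti-PD-L1 over control. These Egr2 and Egr3 ratios rest on few molecules. Over all 6 libraries Egr2 had 96 UMIs in dendritic cells and 306 in neutrophils, and Egr3 had 180 and 801. Egr1 was 1.34 in B cells and -2.34 in dendritic cells in 2FF plus anti-PD-L1 over control, and 1.41 and -1.47 over anti-PD-L1, without the control library.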

How the results depend on the processing

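No result changed direction as a called value. Without the library as a replicate block, the paired fit's counts of members called higher and lower were the same in all 6 contrasts, for example 2 and 5 against B cells. Against NK cells, members called higher rose from 0 to 2 with DESeq2 and were 0 to 2 with 1 library left out (2, Egr2 and Egr3, without anti-PD-L1, and 1, Egr2, without 2DG plus anti-PD-L1). Egr2 and Egr3 had 38 and 32 UMIs in NK cells over all libraries. In Treg over conventional CD4 T cells, members called higher were 1 (Nr4a1) without the 5% of cells with the most UMIs, and 0 to 1 with 1 library left out (1, Nr4a1, without 2FF plus anti-PD-L1). Members called lower there were 1 after thinning, which also gave 4 rather than 5 against B cells and 5 rather than 6 against monocytes and macrophages. After thinning Egr2 in the Treg contrast and Egr3 against B cells had too few counts to be tested, and Junb against monocytes and macrophages was at -0.98. The cause of the other changes was not tested.

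The summed log2 ratios over all T cells kept their sign under these alternatives. Thinning gave -0.24, 0.35, 0.073, 0.56 and 0.19 over control for 2DG, 2FF, anti-PD-L1 and its combinations with 2DG and with 2FF, and the mean of CPM over cells -0.29, 0.32, 0.050, 0.54 and 0.17. The strict gate gave 0.46 for 2FF, 0.17 for anti-PD-L1 and 0.67 for 2DG plus anti-PD-L1 over control. A lead of 1 marker gave 0.37 for 2FF and 0.58 for 2DG plus anti-PD-L1 over control, and 0.14 for 2FF plus anti-PD-L1 against anti-PD-L1. Scaling to a median ratio of 0 gave 0.68 for 2DG plus anti-PD-L1 over control, and 0.55 and 0.15 for the combinations over anti-PD-L1. With 1 mouse per treatment, differences between treatments and between mice cannot be told apart. The 16 NK cells and 20 Tcf7+ cells of the control limit its values.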

Other observations

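UMIs of the Nr4a genes were gathered in few T cells. The tenth of T cells with the most Nr4a1 UMIs held 63.8% to 82.5% of them over the 6 libraries. For Nr4a3 that share was 48.5% to 80.7%, for Nr4a2 44.3% to 56.3% and for Junb 27.1% to 35.3%. Fewer UMIs give larger shares, so the values are compared neither between genes nor between libraries.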
